A study of Arabidopsis thaliana with 6 samples.

Results

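Mitochondria keep a small genome of their own. In Arabidopsis thaliana it codes for core subunits of the respiratory chain, for proteins of the mitochondrial ribosome, for factors of cytochrome c maturation and for many open reading frames (ORFs), most of unknown function, while nuclear genes supply the rest of the organelle's proteins. Complex I (NADH dehydrogenase, the nad genes) takes electrons from NADH, and complex IV (cytochrome c oxidase, the cox genes) passes electrons from cytochrome c to oxygen. Transcripts of plant mitochondria are made by phage-type RNA polymerases of nuclear origin and then pass through splicing, editing and trimming, and a poly(A) tail on such a transcript marks it for decay.

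Mitochondrially encoded transcripts were followed here through 59 probe sets among the 22810 of an Affymetrix microarray. They were chosen as probe sets assigned to a single gene whose symbol is that of a mitochondrial gene (56 probe sets), or which share the gene entry of such a probe set without a symbol of their own (3 probe sets). The 59 probe sets stand for 52 gene entries: 14 probe sets of complex I subunits, 2 of complex IV subunits, 1 of the cytochrome c maturation gene ccb206 and 42 of ORFs, most of them with an ArthMp symbol. No probe set assigned to a single gene was found for a ribosomal protein, an ATP synthase subunit under its current name, apocytochrome b, the maturase matR or the transporter mttB. Among probe sets assigned to mitochondrial genes alone, the ribosomal class is therefore represented only by one that the rpl16 and rps3 genes share. Probe sets shared with a nuclear locus of the AT2G07 series are given below by locus. They were not sorted by function and may include genes of the classes missing here.

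The samples were whole seedlings of the ecotype Col-0, with no transgene or mutation named, held in darkness as controls (3 arrays) or given heat of 37 °C for 30 min in darkness (3 arrays). All plants had 72 h of cold at 4 °C in the dark as seeds and then grew at 23 °C under a day of 16 h light and a night of 8 h. Ages on the labels were 16, 17 and 18 days for the controls and 19, 20 and 21 days for the heated seedlings, whereas the design text states 10 days, so if the labels hold, age and heat cannot be told apart. The labels do not say whether the arrays of a group came from separate cultures, so the p-values describe only how far these samples spread, a spread that could be technical.

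Over all probe sets the arrays correlated at 0.976 to 0.988 within the controls, at 0.989 to 0.991 within the heated samples and at 0.941 to 0.954 between the groups. The heat chaperone gene HSP101 stood at a mean log2 value of 2.83 ± 0.48 (SD, n = 3) in controls and 11.02 ± 0.11 in heated seedlings, and the heat shock factor gene HSFA2 at 2.42 ± 0.59 and 10.06 ± 0.10, as the labels imply. Of 7 probe sets of green tissue markers, 6 lay above the array median in controls. Several of the 7 carry the label RBCS1A, with control means from 2.30 to 12.23, so they are not 7 separate genes. The 7 log2 values summed to 56.57 to 58.04 on control arrays and 55.66 to 56.75 on heat arrays. The corresponding sums over 7 root marker probe sets were 23.09 to 29.13 and 20.56 to 26.5, and no marker of either list passed the test. Pollen, flower and seed markers had group means between 1.29 and 1.58. In whole seedlings a change in the share of a cell type and a change in RNA per cell cannot be told apart.

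Heat was accompanied by higher mitochondrial transcript signals and by no fall that passed the test. Of the 59 probe sets, 18 rose, 0 fell and 41 did not pass, at an adjusted p under 0.05 in limma with Benjamini-Hochberg adjustment over all 22746 probe sets that are not array controls. Across all tested probe sets 2.34% were called higher (533), 4.00% were called lower (909) and 6.34% were called in either direction, against 30.5% called higher among the mitochondrial ones. Centring each array on its median turned the overall split to 671 higher and 679 lower, and cyclic loess scaling to 713 and 688. At an unadjusted p under 0.05, 37 mitochondrial probe sets were higher and 0 lower, where 6.48% and 14.9% of all tested probe sets were higher and lower. The 18 probe sets belong to 13 of the 52 gene entries.

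The median difference over the 59 probe sets, heat minus control, was 0.41 on the log2 scale, beside -0.01 over all tested probe sets. The latter median depends on signal level: it was -0.09 over probe sets above the 25th percentile and -0.15 over those above the median. Most of the 59 are dim, and no comparison at matched level was made. Differences among the 59 ran from -0.07 to 4.03, and 57 of 59 were above 0. In 38 of the 59 every heat array lay above every control array, and in 0 every heat array lay below, where 10.4% and 15.8% of all tested probe sets did so. The median over the 59 was 1.80, 2.01 and 1.95 on the control arrays and 2.41, 2.31 and 2.36 on the heat arrays.

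Signals of these transcripts were low on this array. The mean in controls was below the median of all probe sets (2.90) for 51 of the 59, and the highest control mean was 4.36, for cox1. In heated seedlings 38 means were still below that group's median of 2.79, and the highest was 7.38, for ORF240A. Both group means were under 2.5 for 34 probe sets, of which 31 were ORFs and 2 rose. The deposited values come with no detection calls, so at such levels signal and background cannot be separated. A fold change there may differ in size from the change in RNA, which was not tested. The array also cannot separate the amount of a transcript from the share of it that carries a poly(A) tail, the usual start of Affymetrix labelling. The part of tailing in the results was not tested.

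**Figure D1:**
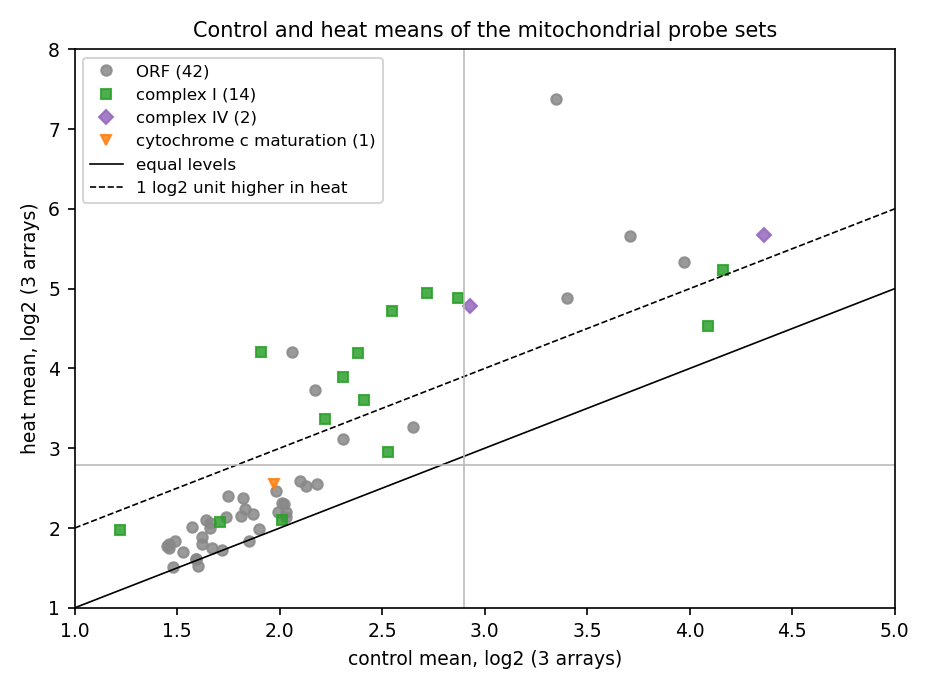
Mean log2 value in controls (x axis) against mean log2 value in heated seedlings (y axis) for the 59 mitochondrial probe sets, by class, with 3 arrays behind each mean. The solid line marks equal levels, the dashed line a difference of 1 log2 unit, and the grey lines the median of all probe sets in each group (2.90 and 2.79). Most ORFs lie in the low corner, and ORF240A stands at the top with a heat mean of 7.38.

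Complex I transcripts carried the most calls of the classes, 9 of 14 probe sets, beside 7 of 42 among ORFs and 2 of 2 in complex IV. Of the 14 probe sets, standing for 7 genes, 9 rose (64.3%, beside 2.34% over all), 0 fell and 5 did not pass. Of the 14, 7 are probe sets of nad1. The median difference was 1.18 (range 0.10 to 2.29). In 11 of the 14 the heat arrays lay wholly above the control arrays, as they did in 10.4% of all tested probe sets. The 9 probe sets that rose belong to nad1, nad5, NAD9 and NAD4L.

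The nad5 gene codes for a large membrane-arm subunit related to ion antiporters, and its messenger RNA is joined from separately transcribed pieces by trans-splicing. Probe set 257337_at for nad5 read 1.66, 1.99 and 2.08 on the control arrays and 4.58, 3.79 and 4.23 on the heat arrays. The lowest heated value was above every control value. The difference was 2.29 ± 0.21 (SE, n = 3 per group, adjusted p = 0.000734, limma).

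A second nad5 probe set, 257338_s_at, whose suffix marks probes that may match several related sequences, read 2.18, 2.15 and 2.59 in controls and 4.38, 3.36 and 3.93 in heated seedlings. The groups were again separate, with a difference of 1.58 ± 0.26 (adjusted p = 0.0121, limma). Without heat replicate 3 this call was lost. The array with the lowest nad5 value in the heated group was replicate 2 for both probe sets.

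NAD9 codes for a subunit of the peripheral arm, which reaches into the matrix and holds the NADH-oxidising part of the complex. Its values were 2.36, 2.11 and 3.19 in controls and 5.19, 4.32 and 4.67 after heat. Control replicate 3 was the highest control and still lay 1 log2 unit or more below each heated sample. The mean went from 2.55 ± 0.57 (SD, n = 3) to 4.72 ± 0.44, a difference of 2.17 ± 0.32 (SE, adjusted p = 0.00747, limma).

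NAD4L codes for a small subunit of the membrane arm. It read 2.02, 2.62 and 2.5 in controls and 4.92, 3.25 and 4.41 in heated seedlings. The groups did not overlap, but heat replicate 2 lay well below the other heated samples. The difference was 1.82 ± 0.39 (adjusted p = 0.0373, limma), and leaving out replicate 1 or 3 of either group ended the call.

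**Figure D2:**
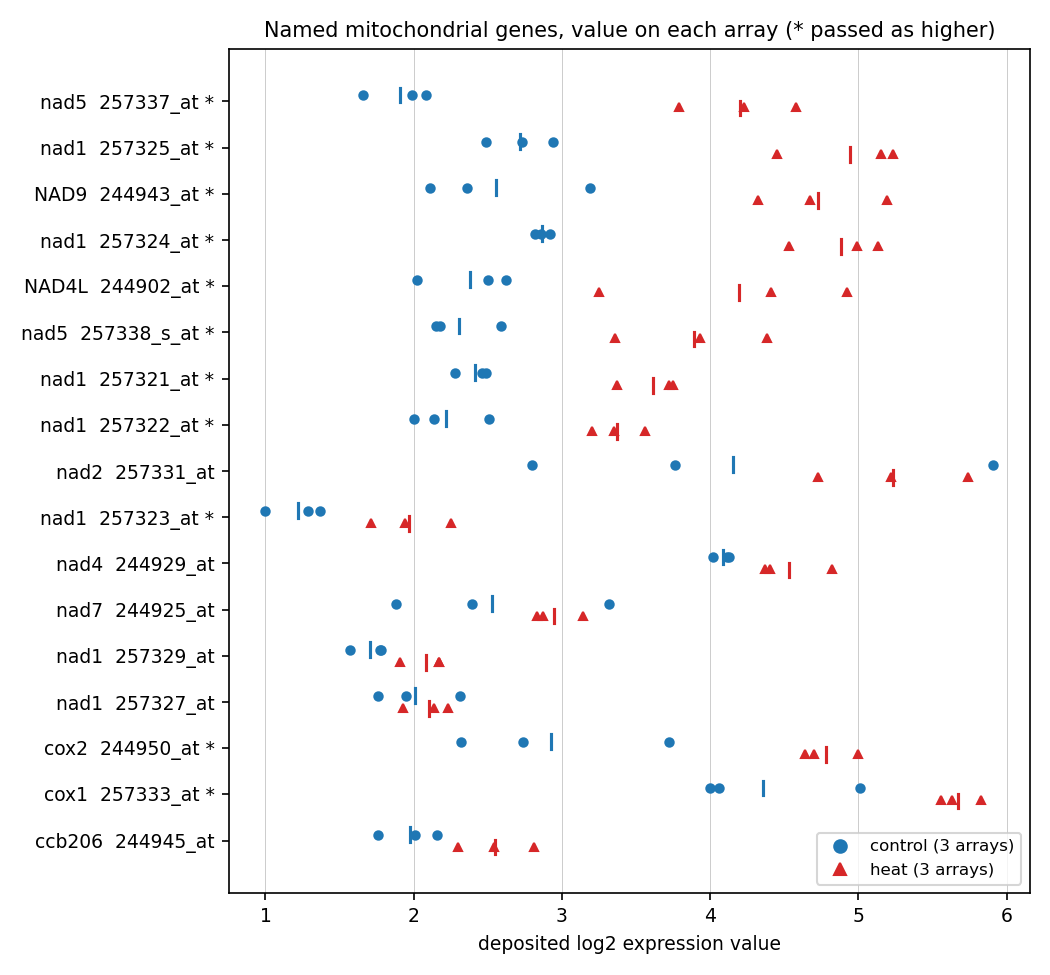
Deposited log2 value (x axis) on each of the 3 control arrays (blue circles) and 3 heat arrays (red triangles) for the 17 probe sets of the complex I, complex IV and cytochrome c maturation classes, with a short bar at each group mean. An asterisk marks the 11 that passed the test as higher. The nad2 and nad7 controls are spread widely, and the heat arrays of cox1 and cox2 lie close together.

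The nad1 gene, whose product lies where the membrane arm meets the peripheral arm, is measured by 7 probe sets and is also assembled by trans-splicing. The probe sets disagreed in size: 5 rose, 0 fell and 2 did not pass, with differences from 0.10 to 2.22 and a median of 1.15. The 2 with the largest differences were 257325_at, which went from 2.72 ± 0.22 to 4.94 ± 0.43 (difference 2.22 ± 0.22 SE, adjusted p = 0.00113, limma), and 257324_at, which went from 2.87 ± 0.05 to 4.88 ± 0.31 (difference 2.01 ± 0.16, adjusted p = 0.000356, limma).

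In the array-by-array values, 257325_at of nad1 read 2.49, 2.73 and 2.94 in controls and 5.23, 4.45 and 5.15 after heat. The values of 257324_at were 2.86, 2.92 and 2.82 in controls and 5.13, 4.53 and 4.99 after heat. For both, heat replicate 2 was the lowest heated sample and yet above all controls.

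Smaller rises were measured by 3 further nad1 probe sets. Probe set 257321_at went from 2.41 ± 0.12 to 3.61 ± 0.21, a difference of 1.20 ± 0.14 (adjusted p = 0.00245, limma). Probe set 257322_at went from 2.22 ± 0.27 to 3.37 ± 0.18, a difference of 1.15 ± 0.17 (adjusted p = 0.00708, limma). The lowest of the 7 in signal, 257323_at, went from 1.22 ± 0.19 to 1.97 ± 0.27 (difference 0.75 ± 0.17, adjusted p = 0.0437, limma). That last call rests on values at the floor of the array and was lost when any single array other than control replicate 2 was left out, and under quantile and cyclic loess scaling.

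The other two nad1 probe sets stayed within the low range. The means of 257329_at were 1.71 ± 0.12 and 2.08 ± 0.15 (adjusted p = 0.137, limma), without overlap of the groups. Those of 257327_at were 2.01 ± 0.28 and 2.1 ± 0.15 (adjusted p = 0.775, limma), with overlapping groups. The files do not say which exon or intron each probe set matches.

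Calls were not made for nad2, nad4 and nad7. The nad2 gene, another antiporter-like membrane subunit made by trans-splicing, read 3.76, 5.91 and 2.80 in controls and 5.22, 4.73 and 5.74 after heat. Control replicate 2 was above every heated sample while the other two controls were below all of them, and the difference of 1.08 ± 0.71 did not pass (adjusted p = 0.43, limma). Without control replicate 2 the difference was 1.95 and passed, and without control replicate 3 it was 0.40 and did not.

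The nad7 gene, a peripheral-arm subunit, showed the same high control. Its values were 1.88, 3.32 and 2.39 in controls and 2.87, 2.83 and 3.14 after heat, a difference of 0.42 ± 0.33 (adjusted p = 0.515, limma). It passed without control replicate 2, at a difference of 0.81, and was 0.09 without control replicate 1. The nad4 gene, a membrane-arm subunit, had the tightest controls of the 3, at 4.13, 4.11 and 4.02, beside 4.82, 4.40 and 4.37 after heat. Its groups did not overlap, and its difference of 0.44 ± 0.14 did not pass (adjusted p = 0.129, limma).

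Both complex IV probe sets rose, by a median of 1.58. The cox1 gene codes for the catalytic subunit and had the highest control level of the 59 probe sets. It read 4.06, 4.00 and 5.01 in controls and 5.83, 5.56 and 5.63 after heat, which placed every heated sample above the highest control, replicate 3. The difference was 1.32 ± 0.26 (adjusted p = 0.0269, limma).

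The cox2 gene codes for the subunit that receives electrons from cytochrome c. Its values were 2.74, 2.32 and 3.72 in controls and 5.0, 4.64 and 4.70 after heat, again with control replicate 3 highest and no overlap. The difference was 1.85 ± 0.33 (adjusted p = 0.0169, limma). Both cox calls were lost without control replicate 1 or without any one of the heat arrays.

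The cytochrome c maturation gene ccb206 is listed in RefSeq as a synonym of ccmB, a membrane protein of the pathway that attaches haem to c-type cytochromes. It read 1.76, 2.01 and 2.16 in controls and 2.81, 2.30 and 2.54 after heat. The groups did not overlap, and the difference of 0.58 ± 0.17 did not pass (adjusted p = 0.0957, limma).

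The ribosomal protein genes rpl16 and rps3, which code for a large-subunit and a small-subunit protein, share 1 probe set and cannot be read apart. It read 3.15, 2.65 and 3.79 in controls and 5.48, 4.97 and 4.97 after heat, with every heated sample above every control. The means were 3.20 ± 0.57 and 5.14 ± 0.29, a difference of 1.94 ± 0.29 (SE, adjusted p = 0.00792, limma). In the RefSeq annotation of TAIR10.1, rps3, rpl16 and nad9 follow one another among the protein-coding genes of the mitochondrial genome, and both of their probe sets rose, the shared one by 1.94 and that of NAD9 by 2.17. By contrast ccmB (ccb206, difference 0.58), between cox2 and rps3, did not pass. The gene order does not place the separately transcribed pieces of nad1 and nad5, so no neighbours are given for them. Whether neighbouring genes change together was not tested.

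Among the 42 ORF probe sets 7 rose, 0 fell and 35 did not pass, with a median difference of 0.34. The 7 include ORF25, an older name of the ATP synthase gene atp4, counted here by its symbol. The share called higher was 16.7%, beside 64.3% in complex I and 2.34% over all probe sets. In 24 of the 42 the heat arrays lay wholly above the controls, as they did in 10.4% of all tested probe sets. The median control mean of the class stood at the 24.8th percentile of all probe sets, and that of complex I at the 40.9th.

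ORF240A, an open reading frame with no function assigned here, showed the largest difference of the 59. Its values were 3.06, 2.82 and 4.18 in controls and 7.43, 7.22 and 7.50 in heated seedlings. The heated samples lay within a narrow band far above all controls. The mean went from 3.35 ± 0.73 to 7.38 ± 0.14, a difference of 4.03 ± 0.33 (SE, n = 3 per group, adjusted p = 0.000355, limma), which is a 16.3-fold higher value.

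ArthMp056 had the smallest adjusted p of the 59. It read 2.0, 1.98 and 2.19 in controls and 4.39, 3.89 and 4.33 after heat, a difference of 2.15 ± 0.16 (adjusted p = 0.000203, limma). ArthMp059 started higher, at 3.68, 4.14 and 4.11, and reached 5.20, 5.21 and 5.59, a difference of 1.36 ± 0.17 (adjusted p = 0.00367, limma). In both, the groups were separate on every array.

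ORF25, grouped here by its symbol, is an older name of atp4, which codes for subunit b of the ATP synthase. It read 1.77, 2.06 and 2.69 in controls and 3.99, 3.15 and 4.06 after heat, a difference of 1.56 ± 0.30 (adjusted p = 0.0253, limma). Heat replicate 2 was the lowest heated sample here too, as in 16 of the 18 probe sets that rose, this one included. The ORF25 call was lost without control replicate 1, heat replicate 1 or heat replicate 3.

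ArthMp060 read 3.06, 4.11 and 3.03 in controls and 4.96, 4.68 and 4.99 after heat, a difference of 1.48 ± 0.28 (adjusted p = 0.0239, limma). Its control replicate 2 was about 1 log2 unit above the other two. ArthMp093 went from 2.31 ± 0.06 to 3.11 ± 0.25 (difference 0.80 ± 0.15, adjusted p = 0.0191, limma) and ArthMp108 from 1.75 ± 0.16 to 2.40 ± 0.15 (difference 0.65 ± 0.13, adjusted p = 0.0295, limma). These 3 calls each ended when replicate 1 or 3 of either group was left out, and those of ArthMp060 and ArthMp108 also without heat replicate 2.

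ArthMp110 had the third largest difference of the class and did not pass. It read 3.65, 2.69 and 4.79 in controls and 6.23, 5.29 and 5.46 after heat, so that the groups did not overlap while the controls spanned 2 log2 units. The difference was 1.95 ± 0.50 (adjusted p = 0.0648, limma). It passed when each array was centred on its median, under quantile and cyclic loess scaling, under both filters on dim probe sets, with an intensity trend, and without control replicate 2 or 3.

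**Figure D3:**
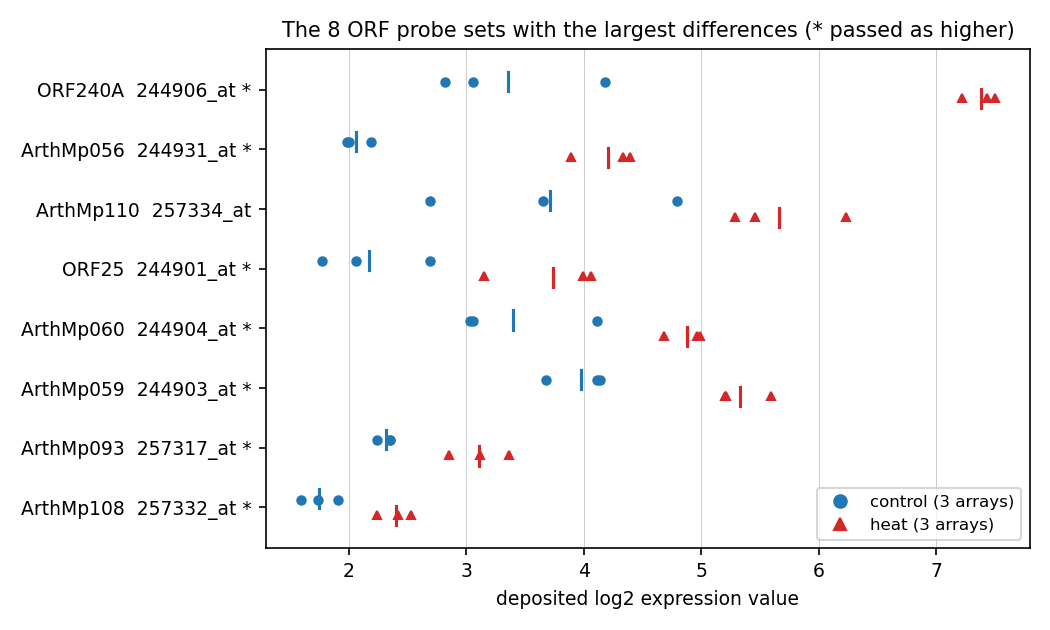
Deposited log2 value (x axis) on each control array (blue circles) and heat array (red triangles) for the 8 ORF probe sets with the largest differences, with a short bar at each group mean. An asterisk marks the 7 that passed as higher. ORF240A lies between 2.82 and 4.18 in controls and between 7.22 and 7.50 after heat.

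The remaining 34 ORF probe sets did not pass and had differences from -0.07 to 0.62. The upper end was ArthMp091, at 2.65 ± 0.21 in controls and 3.27 ± 0.20 after heat (adjusted p = 0.0595, limma). The lower end was ArthMp068, at 1.60 ± 0.10 and 1.53 ± 0.08 (adjusted p = 0.755, limma). Apart from ArthMp091 none of these 34 had a group mean above 2.59.

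Among the 18 probe sets that rose, which passing the test selected, the arrays ranked as follows. Heat replicate 2 gave the lowest heated value in 16 of them, and heat replicate 1 the highest in 13. Among the controls, replicate 3 gave the highest value in 12, replicate 2 in 6 and replicate 1 in 0. Over all 59 the order was another: control replicate 2 was highest in 33 and replicate 3 in 21, and heat replicate 3 was highest in 24 and replicate 1 in 22, while heat replicate 2 was lowest in 35. Of the 18 calls, 9 held when any single array was left out: ORF240A, ArthMp056, ArthMp059, NAD9, nad5 (257337_at) and nad1 (257321_at, 257322_at, 257324_at and 257325_at). The count of calls fell to 9 without heat replicate 3 and to 10 without control replicate 1 or heat replicate 1, and was 24 without control replicate 2.

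Across the 59 probe sets, which share arrays and scaling, the difference ran with the level. Spearman's rho was 0.64 between the control mean and the difference, and -0.40 over all tested probe sets. Against the heat mean it was 0.87. Both means enter the difference, the control mean with a negative sign, so each of these values depends in part on how the difference is computed. These values are descriptions over probe sets of the same 6 arrays.

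Probe sets that the annotation assigns to a mitochondrial gene and to a locus of the AT2G07 series were kept apart, because a copy of mitochondrial DNA lies in that part of chromosome 2 and the signal cannot be assigned to either genome. Of 34 such probe sets 22 rose (64.7%, beside 2.34% over all), 0 fell and 12 did not pass. The median difference was 0.97 (range 0.14 to 3.30). The largest was the probe set shared with AT2G07722, which read 2.01, 3.0 and 2.31 in controls and 6.10, 5.38 and 5.73 after heat (difference 3.30 ± 0.28, adjusted p = 0.000432, limma). The 2 highest heat means among them were 7.41 ± 0.32 for the probe set shared with AT2G07698, from 4.43 ± 0.75, and 7.40 ± 0.32 for that shared with AT2G07671, from 5.43 ± 1.0. The 59 probe sets counted as mitochondrial are single by annotation alone. No probe sequences were mapped, so whether they also match the copy was not tested. Of the 59, 10 carry the suffix for probes that may match several sequences. Among these 10, 1 rose (2.34% over all probe sets), and their median difference was 0.29.

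Probe sets of single nuclear loci in the same stretch of locus numbers, from AT2G07671 to AT2G07777, were fewer. There were 7, of which 1 rose and 0 fell, with a median difference of 0.35 (range -0.20 to 1.20) and 3 higher and 0 lower at an unadjusted p under 0.05. Over all tested probe sets 2.34% and 4.00% were called higher and lower, and 6.48% and 14.9% at the unadjusted threshold. The one that rose, AT2G07705, read 1.74, 1.82 and 1.92 in controls and 3.28, 2.70 and 3.08 after heat (adjusted p = 0.00532, limma). These 7 are nuclear by annotation alone, and whether their probes also match mitochondrial transcripts was not tested. A further 12 probe sets carry a single gene entry with no symbol and no match in the reference, and were not counted as mitochondrial. Of these 5 rose (41.7%, beside 2.34% over all) and 0 fell, with a median difference of 0.63.

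Genes of the other organelle genome were measured on the same arrays. Of 71 plastid-encoded probe sets 1 rose (1.41%) and 1 fell, where 2.34% and 4.00% of all tested probe sets were called higher and lower. The plastid median difference was -0.00 (range -0.74 to 0.91). The one that rose was psaA, a photosystem I reaction centre subunit, from 3.18 ± 0.41 to 4.09 ± 0.03 (adjusted p = 0.0382, limma). The one that fell was rbcL, the large subunit of Rubisco, from 8.78 ± 0.19 to 8.03 ± 0.03 (adjusted p = 0.0137, limma). Both calls were lost when any heat array was left out. Plastid probe sets had a median control level of 7.76 against 1.98 for the mitochondrial ones, so the lists were measured in different ranges of the array, and the difference between the lists was not tested.

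Nuclear genes for mitochondrial respiratory subunits were called at about the rate of all probe sets. Of 35 probe sets 1 rose (2.86%, beside 2.34% over all) and 0 fell, with a median difference of -0.06. The median control percentile of this list was 95.2, against 30.5 for the mitochondrially encoded probe sets. The lists were thus measured in different ranges of the array, and the difference between them was not tested. The riser was CYTC-2, one of the cytochrome c genes, which read 5.97, 5.34 and 5.87 in controls and 7.20, 7.56 and 7.22 after heat (difference 1.60 ± 0.19, adjusted p = 0.00289, limma). Its groups were separate, and the other cytochrome c gene, CYTC-1, stood at 9.16 ± 0.07 and 8.92 ± 0.12 (adjusted p = 0.257, limma).

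Alternative respiratory enzymes, which bypass the proton-pumping complexes, gave 0 calls among 13 probe sets in limma, with 1 higher and 1 lower at an unadjusted p under 0.05 and a median of -0.00. At that unadjusted threshold 6.48% and 14.9% of all tested probe sets were higher and lower. AOX1A, the stress-responsive alternative oxidase gene, read 6.27, 5.14 and 7.10 in controls and 5.85, 6.26 and 5.68 after heat, with overlapping groups (adjusted p = 0.796, limma). Its difference was -0.23 and turned to 0.23 without control replicate 3. Among 7 mitochondrial stress genes 0 passed in limma, with 1 higher and 1 lower at an unadjusted p under 0.05 and a median of -0.20, which turned to 0.25 without control replicate 3. The probe sets of AOX1A and NDB2 belong to both of these lists, so the lists are not separate.

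Nuclear factors that make or process mitochondrial RNA were measured by 26 probe sets. Of these 2 rose (7.69%, beside 2.34% over all) and 0 fell, with a median difference of 0.09. MORF1, an RNA editing factor, went from 4.76 ± 0.16 to 5.62 ± 0.20 (difference 0.86 ± 0.15, adjusted p = 0.0143, limma). MEF1, a pentatricopeptide repeat protein of mitochondrial editing, went from 1.89 ± 0.13 to 2.40 ± 0.09 (difference 0.51 ± 0.12, adjusted p = 0.0446, limma). The MORF1 call was lost without control replicate 3, heat replicate 1 or heat replicate 2, and the MEF1 call without any array other than control replicate 2, under quantile scaling and with probe sets below the 25th percentile left out.

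The mitochondrial RNA polymerase gene RPOTM read 1.94, 1.94 and 2.41 in controls and 1.79, 1.81 and 1.74 after heat, with every heated sample below the controls and no call (adjusted p = 0.275, limma). SHOT1, a mitochondrial transcription termination factor gene known from heat-tolerance mutants, stood at 1.95 ± 0.05 and 1.93 ± 0.09 (adjusted p = 0.923, limma). Among 7 probe sets of mitochondrial DNA maintenance genes 0 passed in limma, with 0 higher and 1 lower at an unadjusted p under 0.05 and a median of -0.14. At that unadjusted threshold 6.48% and 14.9% of all tested probe sets were higher and lower.

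**Figure D4:**
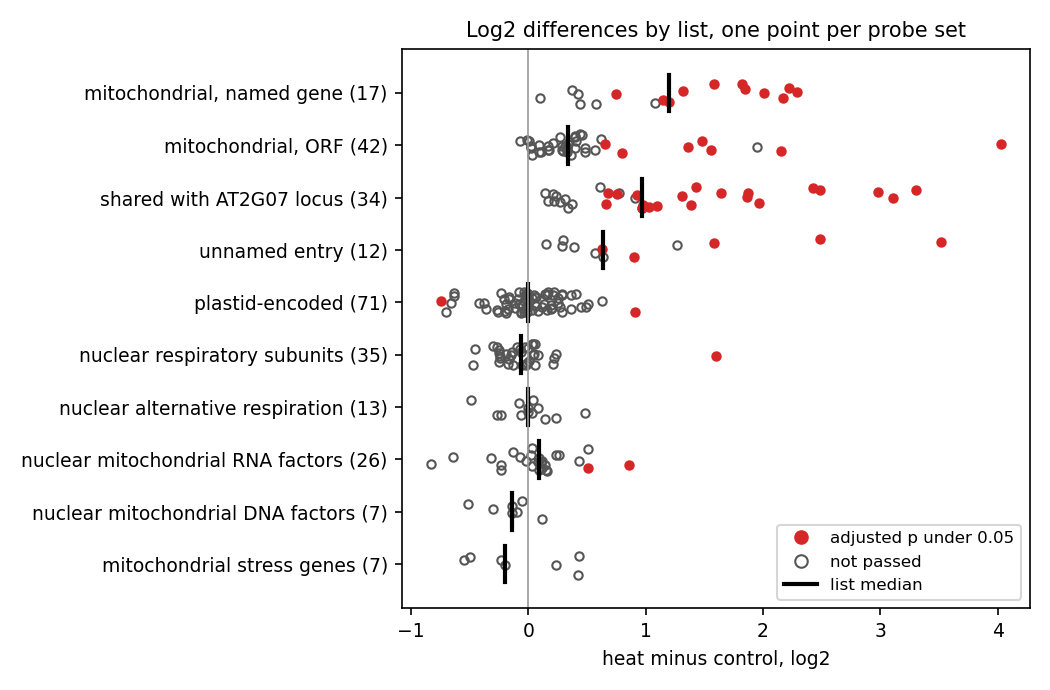
Log2 difference, heat minus control (x axis), of every probe set in each list, with the number of probe sets in brackets. Red points passed the test at an adjusted p under 0.05, open points did not, and the black bar is the list's median. The mitochondrial and shared lists lie mostly to the right of 0, and the plastid and nuclear lists around it.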

How the data were processed

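Total RNA of 6 seedling samples was hybridised to Affymetrix arrays, 3 per group. The deposited values are log2 expression values made by the authors with RMA, per the submitters' processing notes; they come with no detection calls, and the number of arrays limits the precision. The deposited tables that hold these values differ by at most 0. Differences were fitted with limma 3.58.1 in R 4.3.3 (group as the single term, eBayes) over 22746 probe sets after 64 array controls were left out, with Benjamini-Hochberg adjustment and a threshold of 0.05. The fit was tested on simulated data. Mitochondrial probe sets were found by gene symbol, since 0 of their gene entries matched the IDs of the RefSeq table (TAIR10.1). The members, gene lists and tests were chosen with earlier results of these data known. Every member with a named function is described, and among ORFs those that passed and those with the largest differences; from each nuclear list those that passed are described, with AOX1A, RPOTM and SHOT1 whatever their value. CYTC-1, ArthMp091, ArthMp068 and the AT2G07 loci were added after their values were seen. Alternatives were other array scalings, filters on dim probe sets (below the 25th percentile or the median), an intensity trend, the replicate number as a block, each array left out, and wider membership.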

Additional observations from a re-analysis of the deposited data

How the results depend on the processing

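In each of the 13 other fits 0 of the mitochondrial probe sets fell, and the number that rose was 20 with arrays centred on their medians, 19 under quantile and under cyclic loess scaling, 18 and 15 with probe sets above the 25th percentile and above the median, 19 with a trend and 12 with the replicate block. Leaving out 1 array gave 9 to 24, with 6 to 11 in complex I and 3 to 11 among ORFs. With the shared probe sets counted in, 41 rose and the median difference was 0.59; with the 12 unnamed ones, an alternative chosen after seeing the data, 23 rose and it was 0.44. The median difference was 0.52 with arrays centred, which moved the median of all probe sets to 0.10, and 0.58 and 1.70 with probe sets above the 25th percentile and above the median, where the median of complex I was 1.82 and of ORFs 1.56. The filters use the mean over both groups: of the 41 and 18 probe sets they keep, 8 and 9 have a control mean at or below the filter's level and pass through their heat arrays, so the larger medians follow in part from the difference itself. For the other shifts the cause was not tested.

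The deviations of same-numbered arrays from their group means correlated at -0.26, -0.235 and -0.244. Deviations within a group cancel out, so these correlations are not independent and cannot show whether arrays were handled in pairs. With the replicate block 4 ORFs rose, plastid genes had 0 rises and 0 falls, mitochondrial RNA factors had 1 rise, and 396 and 410 of all probe sets were called higher and lower. Falls among plastid probe sets numbered 3 under quantile scaling, 2 and 3 under the 2 filters and 4 with a trend, and the plastid median was 0.11 with arrays centred and 0.14 under cyclic loess. The respiratory median was 0.08 under cyclic loess. RNA factors had 1 rise under quantile scaling and both filters, and a median of 0.20 with arrays centred; mitochondrial stress genes had 1 rise under quantile and cyclic loess scaling. Without 1 array, plastid rises numbered 0 to 3, plastid falls 0 to 3 and the plastid median was -0.05 to 0.06; RNA factors had 0 to 3 rises and 0 to 1 falls, and respiratory subunits and alternative enzymes 0 to 1 falls each. Over all probe sets, leaving out 1 array gave 371 to 1008 rises and 275 to 2719 falls, both highest without control replicate 2.

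Without 1 array, signs turned for 8 of the 59 mitochondrial probe sets, 7 of them ORFs and each with a difference of at most 0.10 in size. The other is nad1 257327_at (-0.03 to 0.25, below 0 without control replicate 1). Signs also turned for the median of the stress genes (-0.30 to 0.25), AOX1A (-0.75 to 0.23, above 0 without control replicate 3) and SHOT1 (-0.07 to 0.02, above 0 without control or heat replicate 2, and 0.09 with arrays centred). Low signal over background limits what can be read for most ORFs.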
